A study of Mus musculus with 2 samples.

Results

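Immature apical vomeronasal sensory neurons (VSNs) were taken as the cells of the adult mouse vomeronasal organ (VNO) that had reached the *Gap43* stage and carried *Meis2*. A cell was included when it had at least 3 unique molecular identifiers (UMIs, tags that count single RNA molecules) of *Gap43*, no fewer of *Gap43* than of *Omp*, and at least 3 of *Meis2*. It also had 0 UMIs of *Tfap2e*, *Neurog1* and *Mki67* and under 5 of *Cyp2a5* and *Cyp2g1* together. These terms were met by 296 of 24084 barcodes, 164 in library 1 and 132 in library 2. They made up 1.58% of the 18704 barcodes with 200 to 9000 genes and at most 10% of UMIs from mitochondrial genes. The cells were thus chosen by the measured UMIs of these genes, and the levels of its own genes are given only as a description.

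The study profiled whole VNOs of wild-type C57BL/6J male mice at postnatal day 60. Tissue from 5 VNOs was dissociated with papain and collagenase, frozen, and captured in 2 droplet libraries that read transcript 3′ ends, with 10000 cells targeted in each. There was no treatment and no second genotype, and how the organs were divided between the libraries is not given. Each comparison was therefore made between groups of cells within the same libraries, and its p-values measure the spread between these 2 libraries, which may be technical.

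VSNs are born throughout life from basal progenitors and detect pheromones and other social cues. After a shared precursor stage they split into an apical branch, which uses the G protein subunit encoded by *Gnai2* and V1R receptors, and a basal branch, which uses the subunit encoded by *Gnao1* and V2R receptors. *Meis2* encodes a homeodomain factor of the apical branch and *Tfap2e* the AP-2 family factor of the basal branch. *Gap43* encodes a growth cone protein of neurons that are extending axons, and *Omp* encodes olfactory marker protein, which accumulates as sensory neurons mature.

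The immature apical cells were set beside 3 other groups that passed the same quality filter and the same terms on *Mki67* and on *Cyp2a5* and *Cyp2g1*. Immature basal cells (73 cells, 43 and 30 by library) had at least 1 *Tfap2e* UMI and 0 of *Meis2* in place of the *Meis2* and *Tfap2e* terms. Their other terms were those of the immature apical cells. Mature apical cells (948 cells, 503 and 445) had at least 3 *Omp* UMIs and more *Omp* than *Gap43*. They met the same *Meis2*, *Tfap2e* and *Neurog1* terms as the immature apical cells. Precursors (123 cells, 60 and 63) had at least 3 *Neurod1* UMIs and under 3 each of *Gap43* and *Omp*, with no term on *Meis2*, *Tfap2e* or *Neurog1*. Macrophages (2268 cells) were used to read the background of free RNA. They passed the same quality filter, with at least 10 UMIs of *C1qa*, *C1qb* and *C1qc* together and under 3 each of *Gap43* and *Omp*. The *Gap43* and *Omp* terms leave out macrophage barcodes with more RNA of these genes, so the background read from them may be too low.

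The median depth was 9160 UMIs and 3120.5 genes per immature apical cell, 9328 UMIs per immature basal cell, 8776 per precursor, 14065 per mature apical cell and 4299 per macrophage. Summed over cells, library 1 held 1589433 UMIs of immature apical cells and library 2 held 1197957. The libraries shared 33 barcodes, none of them among the immature apical cells. Between libraries the summed counts of these cells differed by more than sampling noise (chi-square per degree of freedom 2.85), and their log2 levels correlated across 11127 genes with Pearson's r = 0.940. Genes are not independent replicates. Levels are given as CPM, a gene's UMIs after scaling each group in each library to 1000000 UMIs, with library 1 before library 2. Cells are not replicates, so tests compared the library sums with the quasi-likelihood test of edgeR, and a gene was called where its Benjamini-Hochberg adjusted p was under 0.05. The same sums of the immature apical cells enter 3 of the comparisons, which are therefore not independent of each other.

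The markers of the label were present in these cells. *Gap43* stood at 1236 and 1180 CPM and *Meis2* at 1929 and 1944 CPM, both fixed by the rule, and the *Omp* level was 103 and 74.3 CPM. *Gnai2*, which the rule did not use, was at 1352 and 1313 CPM. *Nrp2*, a semaphorin receptor of apical axons, was at 650 and 622 CPM and had a UMI in 92.2% of the cells, against 8.82% of macrophages. *Gng8*, a G protein gamma subunit of VSNs, was at 711 and 756 CPM and had a UMI in 96.3% of the cells, against 9.04% of macrophages. In mature apical cells *Gng8* was higher, at 1274 and 1235 CPM, so it did not mark the immature stage by its level. In GRCm38, the assembly also named mm10, these genes lie at chr16:42248442-42340651 (*Gap43*), chr2:115863064-116065839 (*Meis2*), chr9:107614125-107635367 (*Gnai2*), chr1:62703285-62818695 (*Nrp2*) and chr7:16891786-16895436 (*Gng8*), and each is annotated as protein coding.

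Markers of non-neuronal cell types and of olfactory sensory neurons were low in the immature apical cells. The paper states that sustentacular cells express *Meis2* as well. Their 5 markers summed to 202.6 and 379.8 CPM, against 386 and 392.1 CPM in mature apical and 30.74 and 31.73 CPM in immature basal cells. Neural precursor markers were not low, at 1408 and 1389 CPM against 4751 and 4367 CPM in precursors. The 5 macrophage markers summed to 225 and 248 CPM, against 21170 and 20620 CPM in macrophages, and 4 of 296 cells had 10 or more C1q UMIs. Of the olfactory sensory neuron markers, which summed to 17.6 and 17.5 CPM, *Cnga2* was at 0. The 5 fibroblast markers summed to 253.5 CPM in library 1 and 9.18 CPM in library 2. Gland markers stood at 656 and 547 CPM, below the 1550 and 5158 CPM of mature apical cells. Near the thresholds, 23 cells were included with exactly 3 *Gap43* UMIs and had 457 CPM of *Nrp2*. The 45 cells left out with 2 *Gap43* UMIs had 441 CPM. For *Meis2*, 7 cells with 3 UMIs (202 CPM of *Nrp2*) lay inside and 6 cells with 2 UMIs (166 CPM) lay outside. A further 14 cells missed the rule by 1 *Neurog1* UMI and 2 cells by 1 *Tfap2e* UMI.

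**Figure D1:**
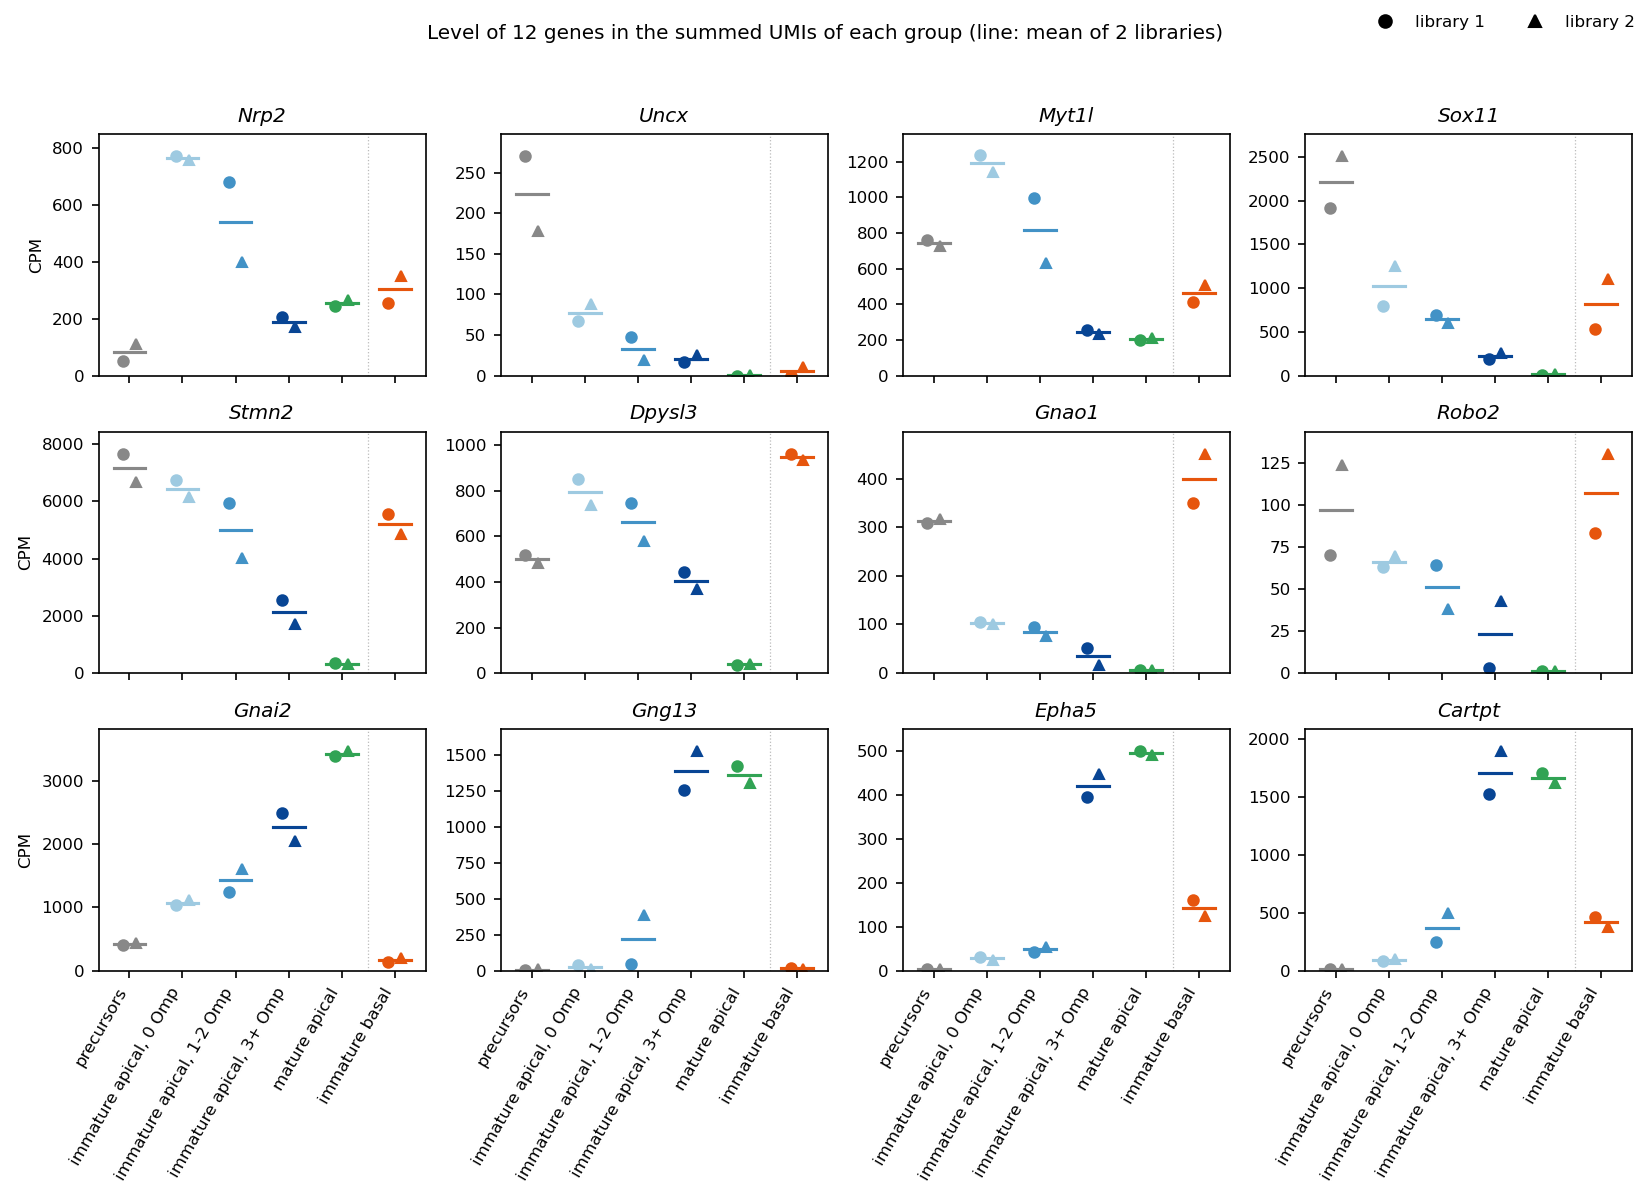
CPM (linear axes from 0) of 12 genes in precursors, immature apical cells with 0, 1 or 2, and 3 or more *Omp* UMIs, mature apical cells and immature basal cells. Circles are library 1, triangles library 2 and lines their mean. *Nrp2* peaked in immature apical cells without *Omp* (774 and 757 CPM), while *Gng13*, *Epha5* and *Cartpt* were high where *Omp* reached 3 UMIs.

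The comparison with precursors asked what had changed by the *Gap43* stage. Immature apical cells were higher in axon guidance, adhesion and ion channel genes and lower in cell division and Notch pathway genes. Over all genes, 1030 of 12023 tested were higher (8.57%) and 719 were lower (5.98%), together 14.5%, with a median log2 fold change of 0.02. The precursors were not divided into branches, so this comparison also contrasts apical cells with a mixture.

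*Mef2b*, which encodes a MEF2 family transcription factor, was at 101 and 129 CPM in immature apical cells and had 0 UMIs in precursors, which made it at least 41.0-fold higher against a floor of 3 UMIs over the group. *Calb2*, which encodes the calcium-binding protein calretinin, was at 4949 and 3993 CPM against 68.5 and 86.3 CPM, a log2 fold change of 5.91 ± 0.19 (SE, adjusted p = 9.71e-06). In each case the libraries of the groups were far apart, as the choice of the genes that changed most makes likely. *Vil1*, encoding the actin-bundling protein villin, and *Pcolce2*, encoding a procollagen enhancer, also had 0 UMIs in precursors and were at least 7.81-fold and 13.1-fold higher.

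Of 33 genes tested on the axon guidance and adhesion list, 11 were higher and 0 were lower, with a median log2 fold change of 0.46. *Kirrel3*, an adhesion molecule of VSN axons, was at 39.6 and 37.6 CPM and had 0 UMIs in precursors (at least 14.1-fold higher). *Ncam2*, a cell adhesion molecule of apical axons, was at 86.8 and 92.7 CPM against 1 UMI in precursors, a ratio of 97.2 (95% counting interval 17.3 to 3850). *Epha5*, an ephrin receptor, was at 103 and 71.8 CPM against 3.60 and 3.75 CPM (log2 fold change 4.59 ± 0.42, adjusted p = 0.000373). *Nrp2* rose from 52.3 and 112.6 CPM to 650 and 622 CPM (3.01 ± 0.26, adjusted p = 0.000311). These guidance genes did not overlap between the groups in either library, but they were named as called genes with large changes, which largely fixes this.

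The growth cone list was mixed, with 7 of 22 genes higher, 4 lower and a median of 0.12. *Ablim1*, an actin-binding protein of growth cones, was at 100.0 and 121.9 CPM against 1.80 and 22.5 CPM (3.25 ± 0.51, adjusted p = 0.00472), but was not called with DESeq2 (adjusted p = 0.0789). *Nnat*, encoding neuronatin, was at 10.7 and 10.0 CPM against 249 and 191 CPM (−4.34 ± 0.25, adjusted p = 0.000104). *Stmn2*, a microtubule regulator of growing axons, was already at 7665 and 6658 CPM in precursors.

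Of 19 tested transduction genes, 7 were higher and 3 lower (median 1.01). *Gng13*, a G protein gamma subunit of mature VSNs, was at 274 and 240 CPM against 3.60 and 11.3 CPM (5.16 ± 0.32, adjusted p = 0.000104). *Rtp1*, a receptor transport protein, was at 95 and 94.3 CPM against 9.01 and 7.504 CPM (3.55 ± 0.28). *Gnai2* rose from 411 and 430 CPM to 1352 and 1313 CPM, while *Gnao1* fell from 308 and 317 CPM to 93.1 and 86.8 CPM (−1.74 ± 0.15, adjusted p = 0.000311). Of 19 voltage-gated channels, 8 were higher and 1 lower (median 1.31), led by the calcium channels *Cacna1h* (39.0 and 39.2 against 3.60 and 3.75 CPM) and *Cacna1b* (29.6 and 51.8 against 7.21 and 3.75 CPM). Among 14 synaptic genes, 5 were higher and 0 lower (median 0.70), led by *Rab3a*, a vesicle GTPase, at 274 and 204 CPM against 79.3 and 65.7 CPM.

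Cell division genes were lower in 8 of 12 tested and higher in 1 (median −2.42). *Cdk1*, the mitotic kinase, had 2 UMIs in the immature apical cells against 62 in precursors, a ratio of 0.0126 (95% counting interval 0.00149 to 0.0474). The gene that rose was *Cdkn1c*, a cell cycle inhibitor, at 558 and 409 CPM against 101 and 101 CPM. *Crabp2*, a retinoic acid-binding protein, was at 1.26 and 2.50 CPM against 108 and 111 CPM (−5.77 ± 0.34, adjusted p = 0.000104). *Ccno*, a regulator of multiciliogenesis, was at 1.89 and 8.35 CPM against 139 and 139 CPM (−4.78 ± 0.41, adjusted p = 0.000311). *Ube2c* and *Dtl*, both ubiquitin ligase pathway genes of dividing cells, and *Fam183b*, a gene of ciliated cells, were also among the 6 named genes with the most negative fitted fold changes.

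On the neurogenic and Notch list 6 of 16 genes were lower and 0 higher (median −0.73). *Dll4*, a Notch ligand, had 2 UMIs in 2 of 296 immature apical cells against 34 UMIs in 16 of 123 precursors, a ratio of 0.0230 (0.00267 to 0.0896). *Hes6*, a neurogenic Hes factor, fell from 878 and 1036 CPM to 140 and 160 CPM (−2.62 ± 0.14, adjusted p = 9.72e-05). *Hes5*, a Notch target, had 2 UMIs against 16. The transcription factor list gave 4 higher and 6 lower genes of 24 (median 0.03). *Tshz2*, a zinc finger factor, was at 335 and 261 CPM against 27.0 and 50.6 CPM (3.00 ± 0.26), and *Bcl11b*, a zinc finger factor of VSN development, at 226 and 288 against 75.7 and 69.4 CPM (1.87 ± 0.19, adjusted p = 0.000596). *Uncx*, a homeodomain factor, was lower than in precursors, at 54.1 and 66.8 against 270 and 178 CPM (−1.85 ± 0.25, adjusted p = 0.00228).

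Precursors of library 2 carried 1347 CPM of the 5 fibroblast markers and 313 CPM of the 5 neutrophil markers, against 3.60 and 1.80 CPM in library 1. None of the tested markers of either list was called (5 and 2 tested), no fibroblast marker was at 0, and their part in the result was not tested. Without precursor library 2, 1993 genes were called. Without immature apical library 1 or 2 the count fell from 1749 to 1154 and 1106.

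The comparison with mature apical cells separated the *Gap43* from the *Omp* stage within the branch. Immature apical cells were higher in growth cone, ribosomal and transcription factor genes and lower in transduction, synaptic and channel genes. Of 14561 genes tested, 2304 were higher (15.8%) and 2668 lower (18.3%), together 34.1%, with a median of −0.05. The cells differed in depth as well. When cells were thinned to 5327 UMIs and shallower ones left out, 1793 genes were higher and 2110 lower.

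Growth cone genes were higher in 17 of 22 and lower in 1, with a median log2 fold change of 1.65. *Stmn2* was at 5801 and 5242 CPM in immature and 339 and 317 CPM in mature apical cells (4.01 ± 0.11, adjusted p = 3.22e-07). *Dpysl3*, a collapsin response mediator, was at 758 and 669 CPM against 37.5 and 38.5 CPM (4.17 ± 0.12, adjusted p = 3.24e-07). *Stmn1*, a tubulin-binding phosphoprotein, was at 5477 and 5793 CPM against 601 and 531 CPM, and *Tmsb10*, an actin-sequestering protein, at 5677 and 5539 against 633 and 555 CPM. In all 4 genes the libraries of the same group lay close together and far from the other group, which their choice by call and size of change favours.

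Transcription factors of the neuronal list were higher in 17 of 25 and lower in 3 (median 0.80). *Uncx* was at 54.1 and 66.8 CPM in immature cells and had 2 UMIs in mature cells, a ratio of 412 (95% counting interval 112 to 3430). *Sox11*, a SoxC factor of new neurons, was at 662 and 1012 CPM against 10.5 and 14.0 CPM (6.03 ± 0.22, adjusted p = 1.03e-06). *Myt1l*, a zinc finger factor that maintains neuronal identity, was at 1014 and 945 CPM against 199 and 208 CPM (2.20 ± 0.10, adjusted p = 2.44e-06). *Pbx2*, which encodes a TALE homeodomain partner of Meis proteins, went the other way, at 1.26 and 1.67 against 12.4 and 12.8 CPM (−3.16 ± 0.41). The paralogs *Bcl11b* and *Bcl11a* moved in opposite directions: *Bcl11b* was at 226 and 288 against 66.6 and 76.0 CPM (1.78 ± 0.13), and *Bcl11a* at 25.8 and 35.9 against 76.0 and 82.0 CPM (−1.44).

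Several genes with almost no UMIs in mature apical cells were present at the immature stage. *Nsg2*, a neuronal endosomal protein, was at 74.9 and 91.0 CPM against 0.816 and 0.154 CPM (7.21 ± 0.36, adjusted p = 3.41e-06). *Cacng4*, an AMPA receptor auxiliary subunit, was at 64.8 and 66.8 against 0.544 and 0.615 CPM (6.69 ± 0.25). *Samd5* had 78 UMIs against 1 and *Tekt2*, which encodes a tektin of cilia, 60 against 2. *Col24a1*, a collagen gene, had 97 against 4. *Robo2*, the Slit receptor of basal axons, was at 51.6 and 60.1 CPM against 0.952 and 1.23 CPM (5.58 ± 0.25, adjusted p = 2.44e-06), and *Gnao1* at 93.1 and 86.8 against 5.58 and 5.54 CPM (3.95 ± 0.18, adjusted p = 2.49e-06). *Gnao1* had a UMI in 44.9% of immature and 4.11% of mature apical cells, with 1.06% in macrophages. In the levels of both genes no library of one stage reached the other, which is likely for any gene named after its call.

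Transduction genes were lower in 15 of 23 and higher in 4 (median −1.13). *Gnai2* was at 1352 and 1313 against 3396 and 3473 CPM (−1.43 ± 0.08, adjusted p = 6.37e-06), and *Gng13* at 274 and 240 against 1418 and 1300 CPM (−2.46). *S100a5*, a calcium-binding protein whose expression follows sensory activity, had 3 UMIs against 765, a ratio of 0.0195 (0.00401 to 0.0572). Among guidance genes the list was divided, 11 of 36 higher and 10 lower (median 0.23): *Nrp2* was higher (1.25 ± 0.10, adjusted p = 3.28e-05), and *Epha5* lower, at 103 and 71.8 against 498 and 490 CPM (−2.55 ± 0.17). Synaptic genes were lower in 10 of 14 and higher in 2 (median −0.94), among them *Slc17a6*, the vesicular glutamate transporter, at 14.5 and 18.4 against 86.9 and 96.6 CPM, and *Syp*, encoding synaptophysin, at 56.0 and 62.6 against 231 and 239 CPM. Voltage-gated channels were lower in 9 of 21 and higher in 1 (median −0.67). *Kcnb2* was the channel that rose, at 13.2 and 7.51 against 0.408 and 0.154 CPM.

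Of the 18 endoplasmic reticulum (ER) chaperone genes 10 were lower and 1 higher (median −0.51), with *Hsp90b1* at 451 and 446 against 847 and 838 CPM. Cytosolic ribosomal protein genes were higher in 47 of 77 and lower in 1, with a median of 0.35. Their summed level was 140100 and 141200 CPM in immature and 108500 and 108600 CPM in mature apical cells. On the neurogenic and Notch list 5 of 19 were higher and 1 lower (median 0.22), led by *Neurod1* and by *Insm1*, a zinc finger factor of neural progenitors, at 184 and 304 against 27.5 and 26.2 CPM (3.10 ± 0.21). Of 10 immediate early genes 2 were higher and 3 lower, and of 11 cell cycle genes 2 were higher (*Top2a*, *Cdkn1c*) and 0 lower. The 6 genes with the most negative fitted fold changes, which for genes at 0 depend on the prior count, were *Il7r*, *Ank1*, *Cdh23*, *Ppef1*, *Ndufa4l2* and *Cyp2u1*. They had 0 UMIs in immature apical cells and were rare in mature ones (73 to 108 UMIs). Against the floor they were at least 4.90- to 7.24-fold lower.

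Of the 5 macrophage markers 4 were called higher in immature apical cells (225 and 248 against 91.5 and 140 CPM, none at 0). With barcodes called doublets left out, *C1qa*, *C1qb* and *C1qc* turned lower, with log2 fold changes of −1.14, −0.73 and −0.86. Gland markers were lower (3 of 3 tested, *Bpifb9a* and *Bpifb5* at 0), and the part of either list in the result was not tested.

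**Figure D2:**
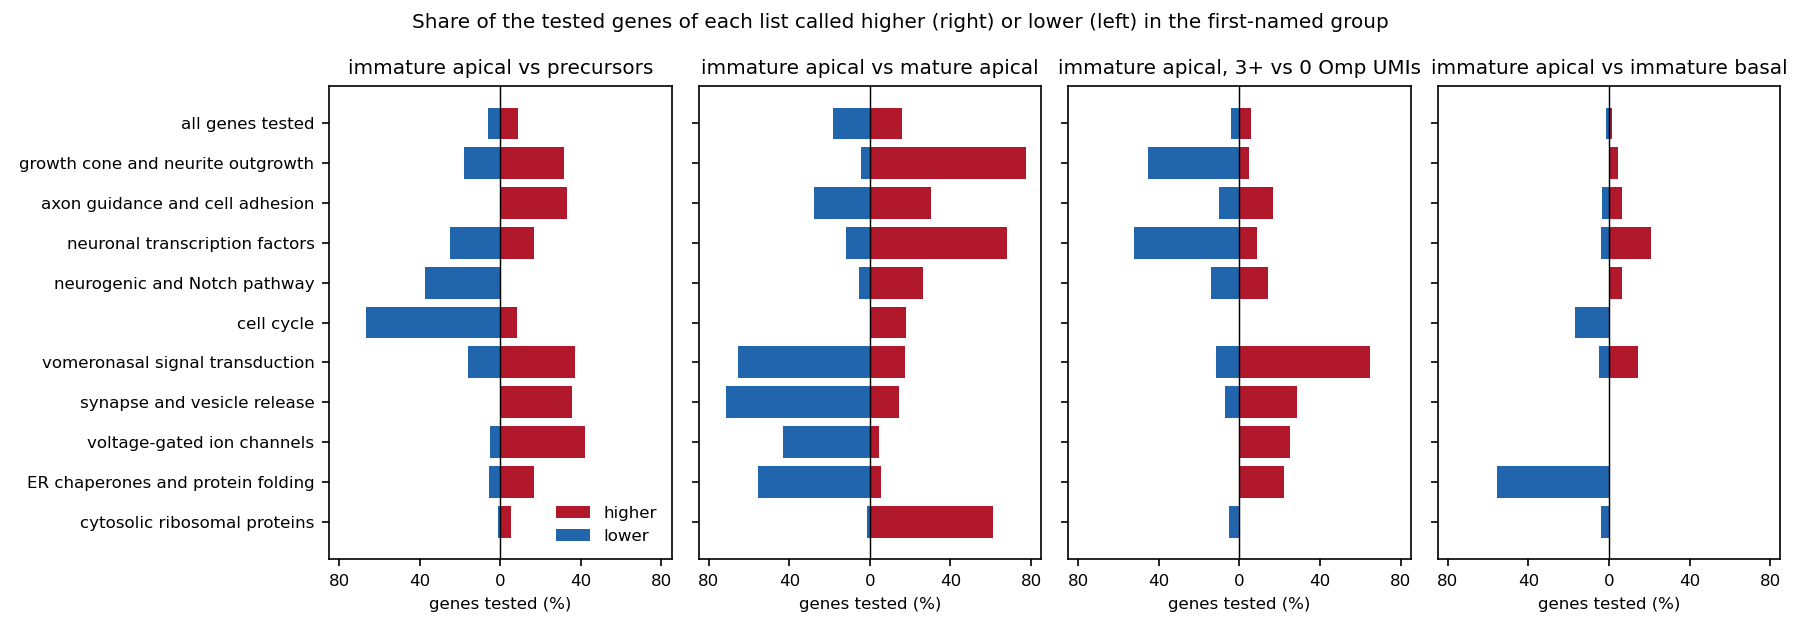
Share of the tested genes of each list (x axis, percent) called higher (right, red) or lower (left, blue) at an adjusted p under 0.05, in the 4 comparisons. All genes tested are the top row. Growth cone genes stood out to the right against mature apical cells (17 of 22) and to the left with *Omp* (10 of 22 lower), and ER chaperones to the left against immature basal cells (10 of 18).

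The immature apical cells varied among themselves along *Omp*. No *Omp* UMI was found in 212 cells (71.6%), 1 or 2 in 53 cells and 3 or more in 31 cells (22 and 9 by library). Cells with 3 or more *Omp* UMIs were compared with those at 0. They were deeper, with a median of 12895 against 8928 UMIs, and they rest on 116366 UMIs in library 2. Cells were split by *Omp*, so what is tested is how far other genes went with it. Of 10632 genes, 636 were higher (5.98%) and 458 lower (4.31%) with *Omp*, together 10.3%, with a median of −0.12. At equal depth 382 were higher and 363 lower. No gene was called when the sum of cells without *Omp* of library 1, or of library 2, was left out (edgeR, 1216 and 1459 genes at an unadjusted p under 0.05), so every call in this comparison depends on having both.

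Transduction genes rose with *Omp* in 11 of 17 and fell in 2 (median 1.03). *Gng13* was at 35.4 and 12.2 CPM in cells without *Omp* and at 1254 and 1521 CPM in cells with it (5.71 ± 0.32, adjusted p = 5e-09), next to 1418 and 1300 CPM in mature apical cells. *Rtp1* was at 45.9 and 32.9 CPM against 268 and 447 CPM (3.02 ± 0.27), and *Gnai2* at 1038 and 1113 against 2497 and 2054 CPM (1.03 ± 0.21, adjusted p = 0.00354). *Gng8* rose as well, from 577 and 611 to 1189 and 1478 CPM (1.08 ± 0.19). The calcium-activated chloride channels *Ano1* and *Ano2* rose from few UMIs (5 and 11) to 11 and 17, and *Ano1* was not called without library 2 of the cells with *Omp* (adjusted p = 0.101).

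Among the genes with the largest fitted increases were *Nrn1l*, a neuritin family gene (3.83 and 4.88 to 249 and 258 CPM, 5.75 ± 0.35, adjusted p = 1.91e-08), *Gng13*, and *Ctxn3*, a cortexin gene (10.5 and 12.2 to 617 and 576 CPM, 5.64 ± 0.27). *Cartpt*, which encodes the CART neuropeptide, rose from 79.4 and 98.8 to 1525 and 1891 CPM (4.18 ± 0.22, adjusted p = 3.41e-09). *Prxl2b*, a peroxiredoxin-like gene, rose from 70.8 and 54.9 to 1024 and 1323 CPM (4.12 ± 0.23). In these 5 genes the 2 libraries of a group stood together and far from the other group, which their choice by large change favours. *Bglap3* was uneven, at 22.6 CPM in library 1 and 404 CPM in library 2 of the cells with *Omp*.

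Guidance genes changed in both directions, 5 of 30 higher and 3 lower (median −0.46, or −0.34 with genes at 0 set to their bound). *Epha5* rose from 30.6 and 24.4 to 394 and 447 CPM (3.83 ± 0.25, adjusted p = 2.72e-08), *Cntn4*, a contactin, from 103 and 110 to 552 and 756 CPM (2.52 ± 0.20), and *Kirrel2*, a homophilic adhesion molecule, from 15.3 and 15.8 to 110 and 447 CPM (3.87 ± 0.47). *Nrp2* fell from 774 and 757 to 207 and 172 CPM (−2.03 ± 0.22, adjusted p = 1.1e-05). *Robo2* was at 63.1 and 69.5 CPM without and 3.23 and 43.0 CPM with *Omp* (−2.18 ± 0.59, adjusted p = 0.0256), and it was not called with DESeq2 (adjusted p = 0.22) or without library 1 of the cells with *Omp* (0.478). The *Nrp2* level thus went from precursors through *Omp*-free to *Omp*-bearing immature cells as 52.3 and 112.6, 774 and 757, and 207 and 172 CPM, with 245 and 265 CPM in mature cells.

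Growth cone genes fell in 10 of 22 and rose in 1 (median −0.74). *Stmn2* went from 6733 and 6132 to 2543 and 1710 CPM (−1.64 ± 0.25, adjusted p = 0.000313), still above the 339 and 317 CPM of mature cells, and *Basp1*, a growth cone membrane protein, from 1923 and 1854 to 640 and 524 CPM (−1.74 ± 0.21). Transcription factors fell in 12 of 23 and rose in 2 (median −1.14). *Myt1l* fell from 1240 and 1146 to 258 and 232 CPM (−2.32 ± 0.22, adjusted p = 2.75e-06), and *Sox11* from 798 and 1248 to 184 and 258 CPM (−2.32 ± 0.25). *Bcl11b* fell from 265 and 345 to 93.7 and 17.2 CPM (−2.18 ± 0.35), and *Bcl11a* rose from 11.5 and 23.2 to 84.0 and 103 CPM (2.36 ± 0.41, adjusted p = 0.00105). *Rprm*, a cell cycle arrest gene, and *Fam124a* had 81 and 75 UMIs in cells without *Omp* and 0 in cells with it, and were at least 6.16-fold and 5.71-fold lower.

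Synaptic genes rose in 4 of 14 and fell in 1 (median 0.79), channels rose in 4 of 16 with 0 falling (median 0.91), and ER chaperones rose in 4 of 18 with 0 falling (median 0.39). *Syp* went from 29.6 and 43.9 to 123 and 163 CPM, and *Kcna2*, a potassium channel, from 23.0 and 26.8 to 90.5 and 180 CPM. On the neurogenic list 2 of 14 rose and 2 fell, and *Hes6* fell from 167 and 206 to 48.5 and 8.59 CPM. Of 77 ribosomal protein genes 0 rose and 4 fell. *Tagln*, *Igfbp4* and *Bpifa1*, called lower but not with DESeq2 (adjusted p = 0.326, 0.316 and 0.329), had 0 UMIs in cells with *Omp* and stood at 274, 216 and 105 CPM in library 1 of cells without it, but at 4.88, 6.10 and 7.32 CPM in library 2. The fibroblast markers summed to 375 and 7.32 CPM there and to 29.1 and 8.59 CPM in cells with *Omp* (*Col1a1*, *Col1a2* and *Col3a1* at 0). Macrophage markers summed to 321 and 226 CPM against 29.1 and 0 CPM (4 of 5 called lower, *Csf1r* at 0), and *Il1b*, an interleukin of myeloid cells, had 139 UMIs against 1. The part of these markers in the result was not tested.

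V1R receptors appeared within these cells. Each mature VSN typically makes a large amount of a single receptor, so a receptor cell was counted where a *Vmn1r* gene reached at least 3 UMIs. This held for 100 of 296 immature apical cells (33.8%, 95% exact binomial interval 28.4 to 39.5%), 35.4% in library 1 and 31.8% in library 2. It held for 2 of 123 precursors (1.63%), 3 of 73 immature basal cells (4.11%), 70 of 2268 macrophages (3.09%) and 821 of 948 mature apical cells (86.6%). Intervals cover counting error only. Precursors and immature basal cells had about the depth of the immature apical cells, and the macrophages were shallower. Cells were also thinned to 5327 UMIs, and shallower ones were left out. This removed 30 of the 296 immature apical cells and 1405 of the 2268 macrophages, so the thinned macrophages are the deeper ones. The share was then 31.2% against 84.5% in mature apical cells and 4.06% in macrophages.

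**Figure D3:**
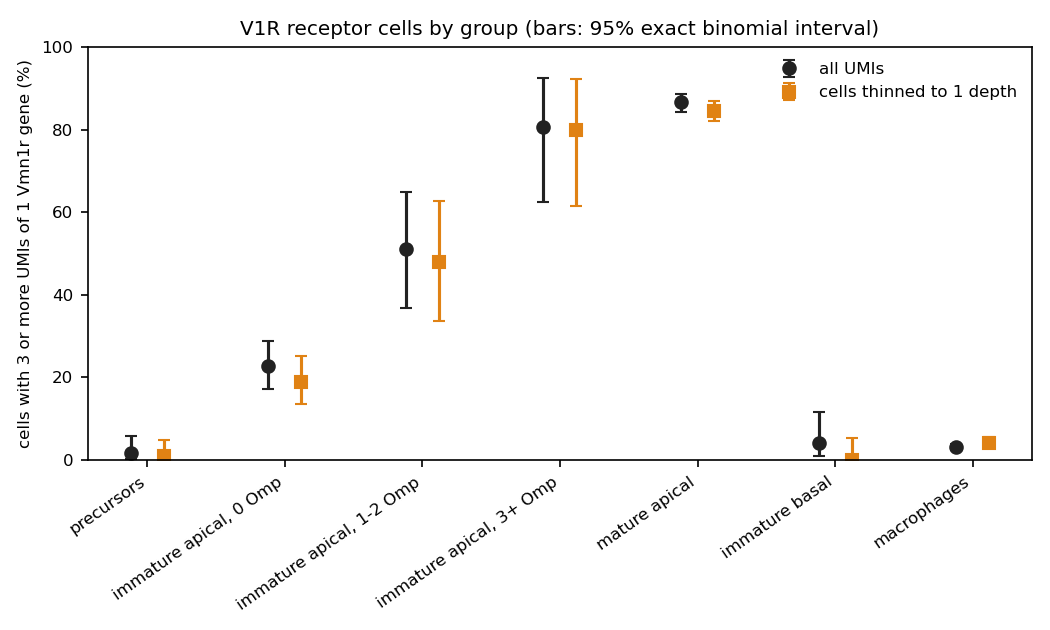
Percent of cells with 3 or more UMIs of 1 *Vmn1r* gene (y axis, 0 to 100) in 7 groups. Black circles use all UMIs and orange squares cells thinned to the same depth, and bars are 95% exact binomial intervals. The share stepped up from 22.6% to 50.9% and 80.6% with *Omp* and was 86.6% in mature apical cells, against 3.09% in macrophages.

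The share of receptor cells rose with *Omp*: 48 of 212 cells without *Omp* (22.6%, interval 17.2 to 28.9%; 24.1% and 20.8% by library), 27 of 53 with 1 or 2 UMIs (50.9%, 36.8 to 64.9%; 50% and 51.9%) and 25 of 31 with 3 or more (80.6%, 62.5 to 92.5%; 77.3% and 88.9%). Thinned cells gave 18.8%, 48.0% and 80%. The summed V1R level was 1736 and 2481 CPM without *Omp* and 6342 and 15770 CPM with 3 or more, against 52.3 and 39.4 CPM in precursors and 11540 and 11440 CPM in mature apical cells. The cells with 3 or more *Omp* UMIs were above those without in each library, and they lay below the mature level in library 1 and above it in library 2, where 9 cells carry the value.

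In the 100 receptor cells the leading gene had a median of 65.5 UMIs and 98.1% of the V1R UMIs of its cell, and 55 different genes led. In mature apical cells the median was 157 UMIs, and 126 genes led. At equal depth the medians were 41 and 59 UMIs. A further *Vmn1r* gene reached 3 UMIs in 19 of the 100 cells, namely in 13 of 48 without *Omp*, 4 of 27 with 1 or 2 *Omp* UMIs and 2 of 25 with 3 or more, against 132 of 821 mature apical receptor cells (16.1%). In thinned cells these were 6 of 35, 3 of 24, 1 of 24 and 86 of 758. V1R genes are near-identical in places and share reads, so which copy a UMI came from is uncertain, and the counts of cells with a further receptor depend on it.

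Of 207 V1R genes in the matrix 128 had a UMI in the immature apical cells and 59 reached 3 UMIs in at least 1 cell. *Vmn1r37* had the most, with 161 UMIs in library 1 and 1130 in library 2, and 7 cells at 3 UMIs or more. *Vmn1r35* followed with 424 and 742 UMIs and 11 cells. *Vmn1r184* had 34 and 686 UMIs, of which 648 came from a single cell. *Vmn1r236* (305 and 54 UMIs) and *Vmn1r86* (320 and 6 UMIs) came from 4 and 3 cells. The levels of single receptors thus hang on a few cells and differ between libraries. At least 1 UMI of the V1R family was found in 74.0% of the immature apical cells, but also in 29.3% of macrophages and 26.8% of precursors, so that share was read as containing background. V2R genes reached 3 UMIs in 8 of 296 immature apical and 27 of 73 immature basal cells, and formyl peptide receptors in 1 and 1.

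*Neurod1*, a proneural factor of precursors, was still found in 53 of the 296 cells (17.9%, 95% exact binomial interval 13.7 to 22.8%; 18.9% and 16.7% by library). The shares were 1.37% in immature basal cells, 0.317% in mature apical cells and 0.353% in macrophages. Its level was 88.1 and 96.8 CPM against 0 and 3.53 CPM in immature basal cells, a ratio of 67.9 (95% counting interval 12.1 to 2690; adjusted p = 0.000407). The immature basal cells may be at a later stage, because *Tfap2e* comes on later than *Meis2*, so branch and stage cannot be told apart. By *Omp* the share was 20.8% of cells without, 17.0% with 1 or 2 UMIs and 0 of 31 with 3 or more, where the floor of 3 counts allows a share of cells with a *Neurod1* UMI of up to 9.68%. Thinned cells gave 13.5%.

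The 53 cells with *Neurod1* had a median of 5 *Gap43* and 22 *Meis2* UMIs, and the 243 cells without it a median of 10 and 15, at median depths of 9079 and 9171 UMIs. *Gnao1* had a UMI in 73.6% of the cells with *Neurod1* (74.2% and 72.7% by library) and 38.7% of those without (39.1% and 38.2%). *Hes6* had a UMI in 81.1% and 46.1%, with 14.3% in macrophages. V1R receptor cells made up 4 of 53 (7.55%), all 4 in library 1, and 96 of 243 (39.5%). *Bcl11b* was seen in 58.5% and 81.1%. In thinned cells the shares were 47.8% and 25.9% for *Gnao1*, 80.4% and 32.3% for *Hes6* and 58.7% and 69.1% for *Bcl11b*. *Gnai2* had a UMI in 53 of 53 and in 241 of 243 cells. *Gnai2* also had a UMI in 79.2% of macrophages, where free RNA and their own expression cannot be told apart, so that its share says little. *Bcl11b* had one in 1.68% of macrophages.

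The comparison with immature basal cells asked how the branches differ among cells that passed the same *Gap43* and *Omp* terms. These terms do not match the groups in stage, because the study reports that *Tfap2e* comes on later in maturation than *Meis2*. The *Tfap2e* term may leave out earlier basal cells, so branch and stage cannot be told apart here. Immature apical cells were higher in *Gnai2*, *Gng13*, *Rtp1*, *Ncam2* and *Meis1* and lower in *Gnao1* and in ER chaperones, while 1 of 22 growth cone genes was called. The *Gng13* difference lay largely in the cells with *Omp*. Of 11624 genes, 146 were higher (1.26%) and 186 lower (1.6%), together 2.86%, with a median of 0.06. With the library as a block the counts were 415 and 479. They came to 58 and 62 with at least 3 *Tfap2e* UMIs in the basal cells, where 21 of the 42 called genes that were followed by name lost their call, among them *Nrp2* (adjusted p = 0.138), *Pcolce2* (0.076), *Gng12* (0.177), *Samd5* (0.133), *BC052040* (0.0729), *Cdca3* (0.181), *Lhx2* (0.17), *Ebf2* (0.589) and *Cd24a* (0.193). *Gnai2*, *Gng13*, *Rtp1*, *Ncam2*, *Meis1*, *Gnao1*, *Hspa5* and *Manf* were still called there. The total was 538 without immature basal library 2.

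Apical branch genes were higher in 6 of 9 and lower in 0 (median 2.97, or 2.54 with genes at 0 set to their bound). *Gnai2* was at 1352 and 1313 against 130 and 204 CPM (2.97 ± 0.17, adjusted p = 2.7e-05), and *Nrp2* at 650 and 622 against 257 and 349 CPM (1.02 ± 0.15, adjusted p = 0.0044). *Ncam2* had 249 UMIs against 0 (at least 22.0-fold higher), *Pcolce2* 101 against 0 (at least 8.93-fold) and *Gng12*, a G protein gamma subunit, 66 against 0 (at least 5.83-fold). *Uncx* had 166 UMIs against 3, a ratio of 14.7 (4.93 to 71.9). *BC052040*, *Samd5* and *Cdca3*, a cell division gene, also had 0 UMIs in immature basal cells and 94, 78 and 66 in immature apical cells. The groups did not overlap for any of these genes, which follows largely from naming genes by their calls and large changes.

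Basal branch genes were lower in 3 of 10 tested and higher in 0 (median −1.92). *Gnao1* was at 93.1 and 86.8 against 349 and 451 CPM (−2.21 ± 0.17, adjusted p = 9.91e-05). *Calr4*, a calreticulin family gene, was at 161 and 132 against 933 and 575 CPM (−2.45 ± 0.22), and *B2m*, which encodes the light chain of MHC class I, at 53.5 and 76.8 against 147 and 243 CPM (−1.63 ± 0.26). *Robo2*, at 51.6 and 60.1 against 83.4 and 130 CPM, and *Bcl11b*, at 226 and 288 against 119 and 222 CPM, did not pass the test. *Shisa8* (9.44 and 5.84 against 279 and 187 CPM, −4.96 ± 0.32, adjusted p = 2.7e-05), *Prrxl1*, a homeodomain factor of sensory neurons (6.92 and 9.18 against 105 and 123 CPM, −3.88 ± 0.31), and *Cnpy1*, a canopy family gene (27.1 and 35.9 against 384 and 300 CPM, −3.53 ± 0.22), were with *Ccl2*, *Fbxo17*, an F-box gene, and *Akr1b3*, an aldose reductase, the 6 named genes with the most negative fitted fold changes.

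**Figure D4:**
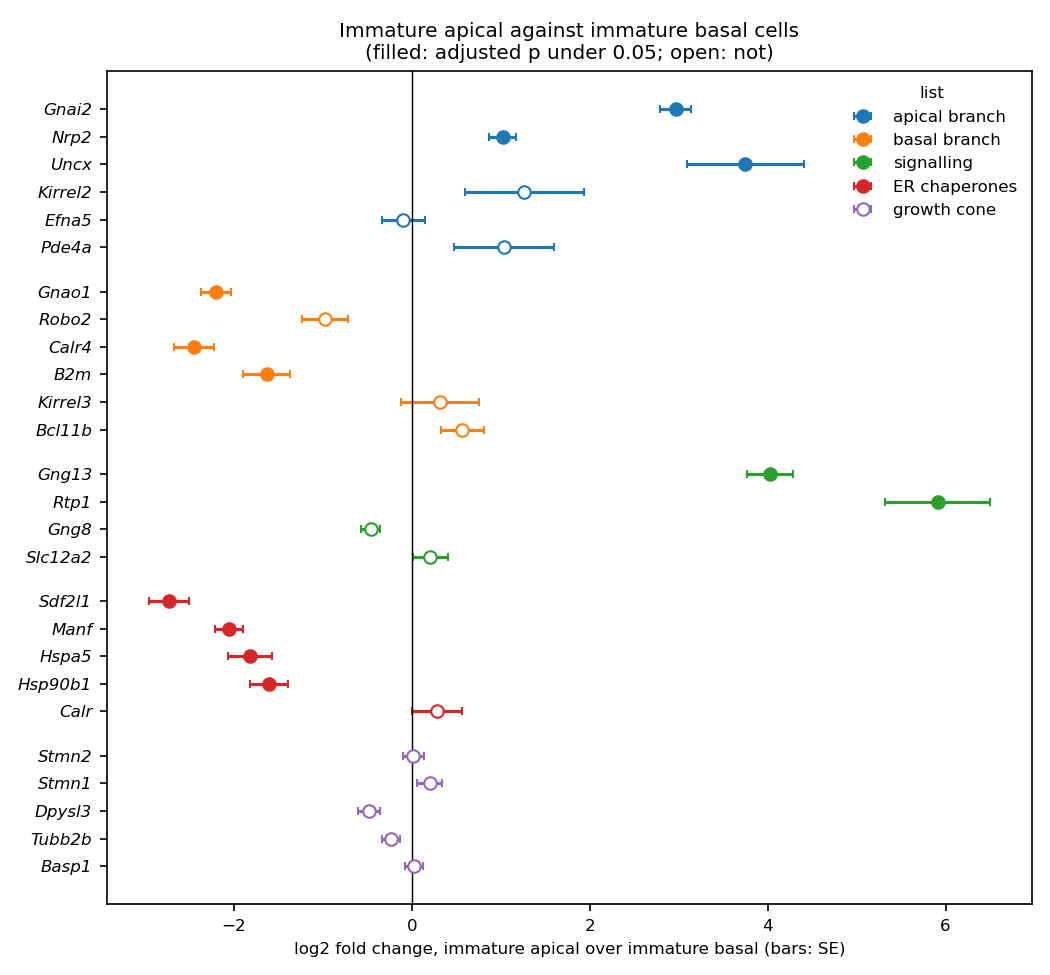
Log2 fold change of immature apical over immature basal cells (x axis) with its standard error for genes of 5 lists; filled points were called and open points were not. *Ncam2*, *Pcolce2* and *Gng12*, which had 0 UMIs in immature basal cells, are not drawn. *Gnai2*, *Gng13* and *Rtp1* lie to the right, 4 of the 5 ER chaperones drawn to the left, and the growth cone genes near 0.

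Transduction genes were higher in 3 of 21 and lower in 1 (median 0.21). *Rtp1* had 264 UMIs against 1, a ratio of 70.0 (12.5 to 2780), and *Gng13* was at 274 and 240 against 15.4 and 14.1 CPM (4.03 ± 0.26, adjusted p = 2.7e-05). Immature apical cells without *Omp* had 35.4 and 12.2 CPM of *Gng13*, and those with 3 or more *Omp* UMIs had 1254 and 1521 CPM. The *Gng13* difference thus lay largely in the cells with *Omp*. *Gng8* was at 711 and 756 against 977 and 948 CPM and was not called (adjusted p = 0.0544). ER chaperones were lower in 10 of 18 and higher in 0 (median −1.33): *Sdf2l1* was at 69.8 and 65.1 against 516 and 328 CPM (−2.73 ± 0.22, adjusted p = 0.00012), *Manf* at 394 and 361 against 1708 and 1269 CPM (−2.06 ± 0.16), and *Hspa5*, the main ER chaperone BiP, at 402 and 362 against 1658 and 878 CPM (−1.82 ± 0.24). *Calr* was not called, at 182 and 152 against 171 and 81.1 CPM.

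Among transcription factors 5 of 24 were higher and 1 lower (median 0.18). *Meis1*, a paralog of *Meis2*, was at 57.3 and 81.8 against 4.39 and 17.6 CPM (2.75 ± 0.48, adjusted p = 0.0127), and *Myt1l* at 1014 and 945 against 411 and 511 CPM (1.03 ± 0.13). *Nhlh2*, a basic helix-loop-helix factor, was lower, at 313 and 346 against 689 and 793 CPM (−1.24 ± 0.12, adjusted p = 0.000407). *Lhx2* and *Ebf2* were also called higher, but *Lhx2* lost its call without immature apical library 1 (adjusted p = 0.26) and *Ebf2* without immature apical library 1 or 2 (0.0672 and 0.312). Both lost it without immature basal library 1 (0.0713 and 0.0582).

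The growth cone list had 1 of 22 genes higher and 0 lower (median −0.15), and *Stmn2* was at 5801 and 5242 against 5540 and 4851 CPM. The one gene, *Cd24a*, was not called without immature basal library 1 (adjusted p = 0.166). Guidance genes gave 2 higher and 1 lower of 31 (median 0.32), and no gene was called among 14 synaptic genes (median −0.08) or 17 channels (median −0.30). The neurogenic list gave *Neurod1* alone, of 15 (median 0.68). Of 77 ribosomal protein genes 3 were lower and 0 higher.

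Immediate early genes, which also respond to dissociation, were higher in 5 of 10 (median 0.83), with *Fos* at 560 and 552 against 233 and 349 CPM (0.89 ± 0.17, adjusted p = 0.0189). Without called doublets *Fos* was not called (adjusted p = 0.0535). With at least 5 UMIs of *Meis2* and *Gap43* in the apical cells *Fos*, *Atf3*, *Fosb* and *Nr4a1* lost their calls (adjusted p = 0.297, 0.188, 0.26 and 0.264). Macrophage markers summed to 225 and 248 CPM against 397 and 617 CPM in immature basal cells (3 of 5 called lower, none at 0), and *Ccl2*, a chemokine, had 3 UMIs against 68. Neutrophil markers summed to 51.6 and 58.4 against 0 and 3.53 CPM, with both tested markers called higher, and *S100a9* (73 UMIs against 0) was not called without doublets (adjusted p = 0.326) or without immature basal library 1 (0.0706). Sustentacular markers summed to 202.6 and 379.8 against 30.7 and 31.7 CPM (1 of 2 tested called higher, *Cyp2g1* and *Ermn* at 0 in both groups). Basal cell markers summed to 49.1 and 118 against 6.59 and 7.05 CPM (1 of 4 tested called higher, *Trp63* and *Dlk2* at 0 in immature basal cells). The part of these cells in the differences was not tested.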

How the data were processed

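The authors dissociated VNOs, made 2 droplet 3′ libraries and deposited 1 matrix of UMI counts per gene and barcode, aligned to mm10 with Cell Ranger 4.0.0 and aggregated over libraries. The depth setting of that aggregation was not found in the labels or methods. The submitters' processing notes also name Seurat 3.2.3. The deposited counts hold 24084 barcodes and 32285 genes, of which 32235 were matched to GENCODE vM21 for positions.

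Barcodes entered when they had 200 to 9000 genes and no more than 10% mitochondrial UMIs. The cells, gene lists and comparisons were chosen with earlier results of these data known. Doublets were called with Scrublet (scanpy 1.11.5, expected rate 0.08) in 2.33% and 1.94% of the barcodes of the libraries and in 12 of the 296 immature apical cells, and were kept in the main results. Counts were summed per group and library (Python 3.11.15, scipy 1.17.1). Genes with at least 10 UMIs over the sums were tested with TMM and the two-sided quasi-likelihood test of edgeR 4.0.16 (R 4.3.3), with Benjamini-Hochberg adjustment over all genes tested. Genes that set the groups of a comparison were not tested in it. The procedure was tested on simulated data. A gene at 0 in a group was given a bound from 3 UMIs over that group, ratios with 1 to 3 UMIs have exact counting intervals, and shares have exact binomial 95% intervals or, at 0, the limit that 3 counts of the total allow, which concerns cells with a UMI. Groups were cut by UMIs in the same cells, so p-values describe how repeatably other genes differed between the 2 libraries.

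The text names up to 4 called genes of each list with the largest change, and other list genes by their role. It also names, per comparison, the 6 genes that changed most in each direction with at least 60 UMIs, leaving out gate, receptor and predicted genes, and the 5 *Vmn1r* genes with most UMIs. A few other genes, chosen after their values were seen, stand beside them.

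The labels tie each number to a library, so same-numbered sums share a library. Their deviations correlated at 0.0008 (immature basal), −0.0080 (mature apical), −0.13 (precursors) and 0.02 (*Omp*). Alternatives were the library as a block, DESeq2 1.42.0, RLE scaling, other count filters, the 5% mitochondrial limit of the study, no called doublets, thinned cells, stricter gates and leaving out each sum.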

Additional observations from a re-analysis of the deposited data

How the results depend on the processing

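The count of genes called against immature basal cells (332) was 748 with no filter on low counts and 120 with at least 3 *Tfap2e* UMIs in basal cells, and 308 to 538 with a sum of 1 library left out. Against precursors (1749) it was 1004 with DESeq2, 2633 with no filter and 1106 to 1993 with a sum left out. With *Omp* (1094) it was 533 with DESeq2 and 0 to 1477 with a sum left out. Against mature apical cells (4972) it stayed within 1.5 times under each alternative, 3554 with DESeq2 and 4181 to 5219 with a sum left out. In each leave-one-out fit the lone library is assumed to vary like the other group.

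With the library as a replicate block 894 genes were called against immature basal cells, and no other count moved by over 1.5 times (5492 against mature apical cells, 1480 against precursors and 1478 with *Omp*). With crossed library numbers, added after seeing the data, 2041 genes were called against precursors.

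The share of cells with a V1R family UMI (74.0%) was 66.92% in thinned cells, 59.46% at 2 or more UMIs and 73.78 to 74.24% by library. The share with *Neurod1* (17.9%) was 13.53%, 13.18% and 16.67 to 18.9%. The number of immature apical cells was 264 at the 5% mitochondrial limit, 284 without called doublets and 241 with at least 5 UMIs of *Meis2* and *Gap43*. Without called doublets *C1qa*, *C1qb* and *C1qc* reversed against mature apical cells (−1.136, −0.732 and −0.8623), and at the 5% limit *Hes1* and *Ier2* reversed with *Omp* (−0.3529 and −0.3241). The causes were not tested. The precision is limited by the 2 libraries per group and the 73 immature basal cells.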

Other observations

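*Vmn1r139*, chosen after its values were seen, had 279 UMIs in the immature apical cells, 93 in library 1 and 186 in library 2. It reached 3 UMIs in 4 of these cells, 1 and 3 by library. None of the 948 mature apical cells had a UMI of it, where the floor of 3 counts allows a share of cells with a UMI of up to 0.316%, and none was found in macrophages. All filtered barcodes together held 446 UMIs. *Vmn1r12* had 99 UMIs in 2 immature apical cells at that level, 1 UMI in mature apical cells and 118 in all filtered barcodes. Other V1R genes were also rare in the mature apical group but not elsewhere. *Vmn1r45* had 103 UMIs in immature apical cells, 2 in mature apical cells and 2875 in all filtered barcodes. For *Vmn1r77* these were 243, 1 and 1050. Absence from the mature apical group, which is set by its terms, is therefore not absence from all mature neurons. V1R genes share reads, so the copy behind these UMIs is uncertain.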
